A study of Mus musculus with 8 samples.

Results

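Chromatin accessibility was examined at 42 genes of glycolysis and glycogen metabolism in mouse gastrocnemius, a calf muscle, with ATAC-seq, an assay whose transposase tags DNA that is not covered by nucleosomes. The genes were chosen by name for their role, at a time when earlier results of these data were known. Every region that the deposited table annotates to 1 of them was taken. These were 950 of the 489637 regions of the table and covered 41 of the 42 genes, since Phkg2 is not a gene name in it. The series compared 4 Vehicle libraries with 4 iMSBmal1KO libraries, all from mice 6 months old and all of the labelled genotype Cre+:iMSBmal1 fl/fl, so that the controls also carried the Cre transgene and the floxed Bmal1 alleles. The Vehicle mice received vehicle and the iMSBmal1KO mice Tamoxifen, the drug that activates an inducible Cre. A change caused by Tamoxifen itself and a change caused by the loss of Bmal1 cannot be told apart in this design. The label iMSBmal1KO names an inducible, muscle-specific knockout of Bmal1. The library titles of both groups also carry the word Control, and what it means there was not stated. The promoter that drives Cre, the sex of the mice and the hour of collection were not given in the sources used here. Each library was made from nuclei of whole muscles, and the labels do not say that replicates were separate mice, so the p-values measure only the spread between these samples. In nuclei of a whole muscle, fewer nuclei of a type and lower accessibility per nucleus cannot be told apart.

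BMAL1 is a core protein of the circadian clock and binds, as a pair with CLOCK, to short E-box sequences in its target genes. Glycolysis splits glucose into pyruvate, which lactate dehydrogenase can turn to lactate, and glycogen is the branched glucose store from which a contracting muscle feeds this pathway. Fast-twitch muscles such as the gastrocnemius rely on both, and adult muscle uses its own isoforms of many of the enzymes, for which other genes serve liver, brain or most other tissues.

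Promoter sequences are shown for 6 members, chosen by the values at their starts. Ppp1r3d, Epm2a and Gyg were among the members with the smallest p-values at their starts, and Gapdh, Pgam2 and Ppp1r3c had the most accessible starts per kb. Ppp1r3b also belonged to the first set but has no entry in the promoter table, and it is named only. Each line gives the 250 bases before the RefSeq start (build GRCm38.p6), 5′ to 3′ on the gene's strand, with matches in capitals to the E-boxes CACGTG and CAGCTG, the GC box GGGCGG and the TATA motif TATAAA on either strand. The stretches are chr2:178414464-178414713 (minus strand) for Ppp1r3d, chr10:11343195-11343444 (plus) for Epm2a, chr3:20155117-20155366 (minus) for Gyg, chr6:125165774-125166023 (minus) for Gapdh, chr11:5803797-5804046 (minus) for Pgam2 and chr19:36736605-36736854 (minus) for Ppp1r3c.
Ppp1r3d: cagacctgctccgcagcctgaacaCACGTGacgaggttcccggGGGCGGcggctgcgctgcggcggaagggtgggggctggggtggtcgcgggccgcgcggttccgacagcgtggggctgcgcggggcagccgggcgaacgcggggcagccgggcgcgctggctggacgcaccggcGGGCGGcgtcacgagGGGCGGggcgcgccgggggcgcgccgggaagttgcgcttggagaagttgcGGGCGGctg
Epm2a: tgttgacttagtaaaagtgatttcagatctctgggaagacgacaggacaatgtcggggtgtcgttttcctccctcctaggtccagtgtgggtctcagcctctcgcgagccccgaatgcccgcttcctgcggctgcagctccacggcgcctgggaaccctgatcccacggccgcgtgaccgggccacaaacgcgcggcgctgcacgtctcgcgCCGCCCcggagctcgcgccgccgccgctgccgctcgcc
Gyg: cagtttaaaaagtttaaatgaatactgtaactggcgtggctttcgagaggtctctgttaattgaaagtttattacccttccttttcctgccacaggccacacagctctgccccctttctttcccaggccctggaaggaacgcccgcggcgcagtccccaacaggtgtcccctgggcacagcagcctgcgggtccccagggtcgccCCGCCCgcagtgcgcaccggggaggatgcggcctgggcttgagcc
Gapdh: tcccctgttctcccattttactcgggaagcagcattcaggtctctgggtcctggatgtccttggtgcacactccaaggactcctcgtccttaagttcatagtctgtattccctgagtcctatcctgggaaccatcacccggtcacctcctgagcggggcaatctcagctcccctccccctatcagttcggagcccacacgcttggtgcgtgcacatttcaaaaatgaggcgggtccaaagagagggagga
Pgam2: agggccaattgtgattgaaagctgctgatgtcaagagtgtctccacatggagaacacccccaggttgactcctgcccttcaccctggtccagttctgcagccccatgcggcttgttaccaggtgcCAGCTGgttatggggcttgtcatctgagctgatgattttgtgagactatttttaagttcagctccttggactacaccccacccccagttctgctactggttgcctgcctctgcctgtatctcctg
Ppp1r3c: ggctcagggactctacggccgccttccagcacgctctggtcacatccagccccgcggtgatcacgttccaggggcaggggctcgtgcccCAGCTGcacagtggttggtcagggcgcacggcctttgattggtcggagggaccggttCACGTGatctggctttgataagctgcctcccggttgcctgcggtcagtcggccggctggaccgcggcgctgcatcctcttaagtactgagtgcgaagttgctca
Ppp1r3d and Ppp1r3c held 1 CACGTG each in these 250 bases, and Ppp1r3d also held 4 GC boxes. Pgam2, an enzyme gene of adult muscle, held 1 CAGCTG, the E-box form known from myogenic factors, and Ppp1r3c held 1 as well. Epm2a and Gyg held 1 GC box each, the CACGTG of the Gyg window lies past the bases shown, and the stretch of Gapdh held none of these motifs. A match is a description of letters and not a bound site.

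Over 58 promoter windows of 300 bases, which matched 40 of the 42 members, CACGTG was found in 8 windows (13.8%, against 7.15% of 32851 windows of all genes). The genes were Fbp2, Gyg, Ldha, Pfkfb2, Pfkfb3, Pfkm, Ppp1r3c and Ppp1r3d. ACGTG, which lies inside CACGTG, was found in 44.8% of the member windows against 19.6% of all, CAGCTG in 25.9% against 16.3%, GGGCGG in 55.2% against 35.7%, and TATAAA in 5.17% against 13.6%. Member windows were also richer in G and C, with a median of 59.7% against 52.7%, and the part of this in the motif shares was not tested. Of the 58 windows, 52 overlapped a region of the table. The log2 change at the starts of the 8 genes with CACGTG had a median of 0.06 and was positive in 6, and at the starts of the 30 tested members whose windows lacked it the median was 0.11 and the change was positive in 27. These windows lie in the same libraries, and no test was made of this difference. Over all tested starts the median was 0.17 and 75.3% of the changes were positive. Start values were not always measured at the window with CACGTG. That window overlapped no region in Pfkm, and in Ppp1r3d it overlapped only 2 regions listed under Fam217b, which are not part of the start value.

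The libraries held 4.31 to 29.5 M read equivalents in regions, a read equivalent being the deposited signal divided by what 1 read is worth in that library. Vehicle 4 stood apart: it was the shallowest, 24.9% of its regions were at 0, and 16.5% of its signal was mitochondrial, against 1.11% to 5.51% in the other 7 libraries. Bmal1, listed as Arntl with 82 regions, had a summed signal of 1942 to 2688 in Vehicle and 3023 to 3421 in iMSBmal1KO (log2 change 0.46 ± 0.14, SE; limma adjusted p = 0.374), and its start regions overlapped between the groups, so its accessibility does not check the deletion, whose exon the labels do not name. By list median, markers of other cell types were weak beside fast-fibre markers. The median start signal per kb in Vehicle was 1064 for 10 fast-fibre markers and 75.2 for the slow-fibre list. It was 105 for smooth muscle, 97.6 for fibro-adipogenic cells, 49.1 for satellite cells, 46.7 for adipocytes, 41.3 for endothelium and 16.3 for macrophages. Single starts did not all follow this order: of the fast-fibre markers, Myh4 (215 per kb), Myh1 (74.3) and Myh2 (48.0) were low. Tnni1 of the slow-fibre list (197) and Col1a1 of the fibro-adipogenic list (188) lay above Myh1 and Myh2. In all 8 marker lists the ranges of summed start signal overlapped between the groups. No marker passed an adjusted p of 0.05 (limma, all regions summed), where 0.13% of all genes did. The largest part of the slow-fibre sum came from Atp2a2. Within that list the starts of Myh7b held 21.3, 12.3, 19.7 and 31.3 in Vehicle and 10.7, 7.53, 8.35 and 6.27 in iMSBmal1KO, without overlap. Of all tested starts 4.28% were without overlap. These Myh7b values rest on few reads, as 1 read is worth 3.13 in Vehicle 4 and 1.25 in iMSBmal1KO 4. Mean start signal of Myh7, Myl3, Tnni1 and Tnnt1 was also lower in iMSBmal1KO, and that of Atp2a2, Myl2 and Myoz2 was higher.

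At their annotated starts the members were among the more accessible genes of the muscle. Signal per kb of start region, averaged over the Vehicle libraries, lay above the 90th percentile of 16451 tested genes for 14 of the 40 members with a testable start, and above the 50th percentile for 33. Gapdh, the enzyme that oxidises glyceraldehyde phosphate, led with 1934 ± 421 signal per kb (SD, n = 4), followed by Pgam2 (phosphoglycerate mutase of muscle) with 1428 ± 299, Ppp1r3c (a subunit that brings protein phosphatase to glycogen) with 1391 ± 196 and Pkm (pyruvate kinase) with 1341 ± 339. Pgam2, Ppp1r3c and Pkm differed from each other by less than the SD of each, and Gapdh was above Pgam2 by more than the SD of either. At the low end were Pfkfb1 with 98.2 ± 22.9, Ppp1r3b with 66.1 ± 22.3 and Hk1 with 34.5 ± 10.1, each below the one before by more than the larger SD. Between these ends, Stbd1 (354.6 ± 58.5) and Epm2a (194 ± 18.1) were the 1 pair of neighbours set apart in that way, and the other neighbours lay within an SD of each other. The order in iMSBmal1KO had the same ends: Gapdh at 1945 ± 166 and Hk1 at 34.7 ± 9.25.

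**Figure D1:**
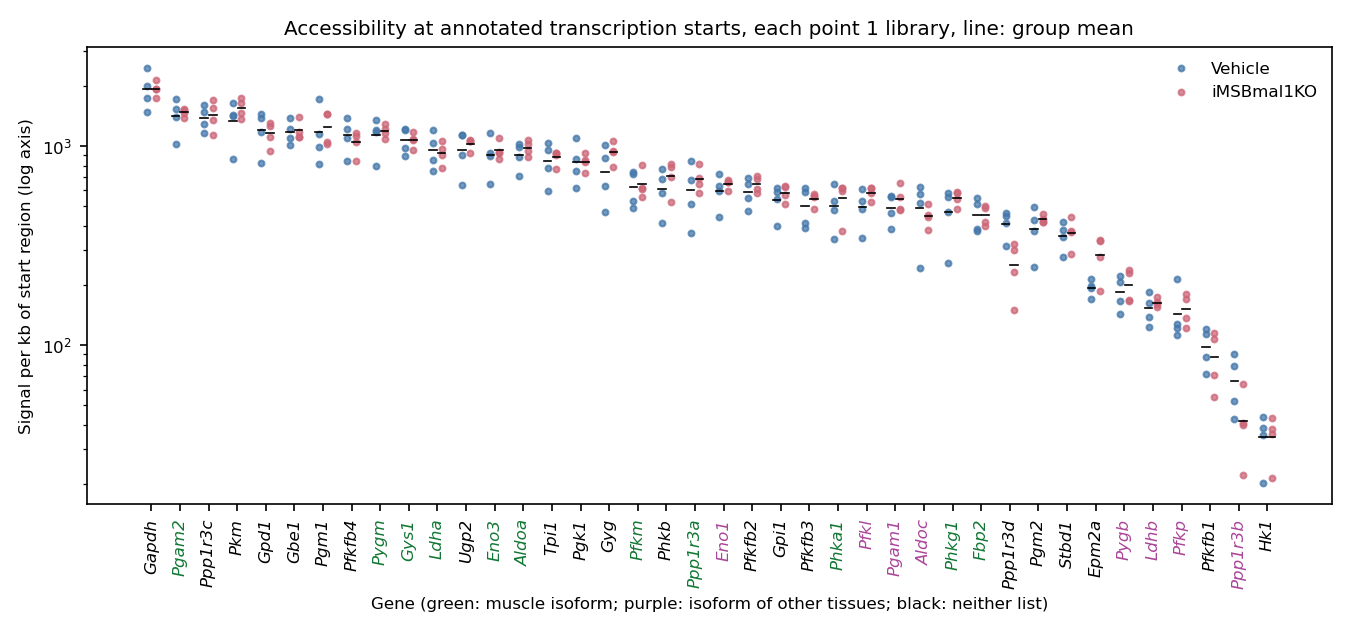
Signal per kb of annotated start regions (log axis) for the 40 members with a testable start, ordered by their Vehicle mean, with each library as a point and each group mean as a line. Levels run from 1934 per kb at Gapdh to 34.5 per kb at Hk1, and in no member do the 4 libraries of the groups separate.

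The genes whose isoform predominates in adult skeletal muscle had the higher starts. For these 11 genes the median was 905 per kb in Vehicle, with a range of 454 (Fbp2) to 1428 (Pgam2), and for 8 isoforms better known from other tissues it was 338, with a range of 66.1 (Ppp1r3b) to 598 (Eno1). The median of all tested genes was 242. Within the enzyme families the muscle form was higher than its relative in all 8 libraries for Ldha over Ldhb (6.28 times in the Vehicle means), Pygm over Pygb (6.12 times), Pgam2 over Pgam1 (2.90 times), Aldoa over Aldoc (1.85 times) and Eno3 over Eno1 (1.52 times). Ldha and Ldhb make the 2 subunits of lactate dehydrogenase, and Pygm and Pygb are the muscle and brain forms of glycogen phosphorylase. In the phosphofructokinase family, which sets the pace of glycolysis, Pfkm exceeded Pfkl in 7 of 8 libraries by 1.26 times in the Vehicle means, and Pfkl exceeded Pfkp in all 8 by 3.43 times. The start value of Pfkm rests on 1 region. Its first RefSeq promoter window overlapped 2 other regions listed under Pfkm, with a mean signal of 490 in Vehicle and 480 in iMSBmal1KO. These are not annotated as starts and are left out of the ratio. Pgm1, the main phosphoglucomutase, exceeded Pgm2 by 3.05 times. Of the phosphorylase kinase subunits, Phka1 was above Phkg1 in 6 of 8 libraries and below it in the others.

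At the starts of the muscle isoforms the groups overlapped in all 11 genes (4.28% of all tested starts were without overlap). Summed start signal at Pygm was 1735, 1508, 1549 and 1019 in Vehicle 1 to 4 and 1392, 1565, 1493 and 1657 in iMSBmal1KO 1 to 4. At Ldha it was 2097, 1808, 1477 and 1307 against 1359, 1694, 1575 and 1839, and at Pgam2 it was 776, 692, 631 and 460 against 690, 683, 619 and 662. In these genes Vehicle 1 was the highest and Vehicle 4 the lowest library, and the iMSBmal1KO values fell between them. The log2 changes were 0.10 ± 0.18 (SE) at Pygm, -0.03 ± 0.18 at Ldha and 0.08 ± 0.18 at Pgam2.

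Aldoa, the aldolase of muscle, held 1812, 1765, 1571 and 1257 at its starts in Vehicle and 1901, 1813, 1566 and 1683 in iMSBmal1KO. Eno3, the enolase of muscle, held 1887, 1449, 1498 and 1044 against 1400, 1509, 1499 and 1779. Gys1, the glycogen synthase of muscle, held 1461, 1440, 1176 and 1066 against 1280, 1405, 1140 and 1305. All 3 pairs of groups overlapped, with log2 changes of 0.13 ± 0.17, 0.10 ± 0.18 and 0.01 ± 0.17 (SE). Pfkm held 327, 321, 234 and 216 against 245, 269, 273 and 354 (0.07 ± 0.20), and Fbp2, the fructose bisphosphatase of muscle, 751, 704, 525 and 516 against 549, 673, 571 and 689 (0.01 ± 0.18). Phka1, the regulatory alpha subunit of phosphorylase kinase, held 1274, 1045, 944 and 672 against 734, 1211, 1177 and 1218 (0.15 ± 0.20). Phkg1, its catalytic subunit, held 388, 368, 309 and 172 against 390, 385, 320 and 360 (0.30 ± 0.21), so that the low value of Vehicle 4 set it apart from the other 7 libraries. Ppp1r3a, the phosphatase subunit of muscle glycogen, held 417, 334, 254 and 181 against 287, 344, 320 and 401 (0.25 ± 0.22). The limma adjusted p at these 11 starts ran upward from 0.565, the value of Phkg1.

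In 7 members the first RefSeq promoter window overlapped only regions that the table annotates to another gene, so that their levels by gene name leave out the signal there. Of the 2 windows of Hk1, 1 overlapped no region and the other a region listed under Hk1os with a mean signal of 309 in Vehicle and 339 in iMSBmal1KO, although Hk1, a hexokinase that traps glucose in the cell, ranked lowest by its own name. The regions within the bounds of Phkg2, the testis and liver form of the kinase's catalytic subunit, were listed under Gm28198, and the strongest of them, chr7:127573103-127573405, had a signal of 274, 251, 201 and 209 in Vehicle and 306, 343, 180 and 222 in iMSBmal1KO. The window of Pygl, the liver phosphorylase, overlapped regions listed under F730035M05Rik with a mean signal of 84.9 in Vehicle and 102 in iMSBmal1KO. Pygl itself had 1 region, too weak to test, with a signal of 0, 1.03, 0.635 and 0 against 5.14, 4.18, 2.39 and 3.76. The window of Ppp1r3d overlapped 2 regions listed under Fam217b, with a mean signal of 35.9 in Vehicle and 37.8 in iMSBmal1KO. That of Pgm1 overlapped a region listed under Itgb3bp with 1657 in Vehicle and 1749 in iMSBmal1KO, and that of Pfkfb4 a region listed under Gm38004 with 1169 and 1158. That of Pfkfb1 overlapped regions listed under Apex2 with 51.3 and 53.2.

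No member region, summed gene or summed start differed between the groups at an adjusted p of 0.05. Of the 950 regions 372, in 40 genes, passed the filter on low signal, and 0 of these 372 passed the threshold, where 0.0881% of all tested regions did (limma, Benjamini-Hochberg over 124901 regions), with the smallest adjusted p among the members at 0.343. At an unadjusted p under 0.05 there were 22 member regions, 12 higher and 10 lower in iMSBmal1KO, which is 5.91% against 9.22% of all regions. In 10 regions (2.69%, against 5.48% of all) the 4 values of a group all lay above the 4 of the other, 6 with iMSBmal1KO higher and 4 lower. The median log2 change of the member regions was 0.05, and that of all tested regions 0.12. These shares lay below the background of the table.

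With all regions of a gene summed, 0 of 40 members passed the threshold (0.13% of 22224 genes did). At an unadjusted p under 0.05 there was 1 member, Epm2a, where 9.48% of all genes reached it, and Epm2a was also the 1 member whose groups did not overlap, where 4.94% of all genes did so. With start regions alone, 0 of 40 passed (0.0851% of all tested genes), 2 reached an unadjusted p under 0.05 (Epm2a higher and Ppp1r3d lower, against 10.2% of all), and in 0 were the groups separate (4.28% of all). The log2 change of the summed signal was positive in 31 of 40 members (77.5%, against 66.6% of all genes), with a median of 0.08 against 0.11. That count rested on Vehicle 4, which was the lowest of the 8 libraries in 34 of the 40 members and in 44.5% of all genes. Without it the change was positive in 15 members (37.5%, against 60.0% of all genes), with a median of -0.06 against 0.05. By scaling it was positive in 18 members (45%, against 50.5%) under an abundance-dependent loess, with a median of -0.02 against 0.003. It was positive in 23 (57.5%, against 58.8%) with total read equivalents as the scale and in 38 (95%, against 73.9%) with trimmed-mean factors.

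Under the scaling reported, the libraries bounded how far the summed signal of a member could differ. A bound on the sum does not bound a part of a gene. The 95% interval of a gene's log2 change extended 0.34 to each side in the median member (0.29 to 0.58), and in 32 of the 40 members it lay within a change of 1.5-fold in either direction. The 8 others were Epm2a, Pkm, Ppp1r3c, Phkg1, Pfkl and Ppp1r3a on the side of higher signal and Pygb and Ppp1r3b on the side of lower signal. Ppp1r3b, the weakest of them, was the 1 member whose interval passed 2-fold, from -1.01 to 0.16.

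**Figure D2:**
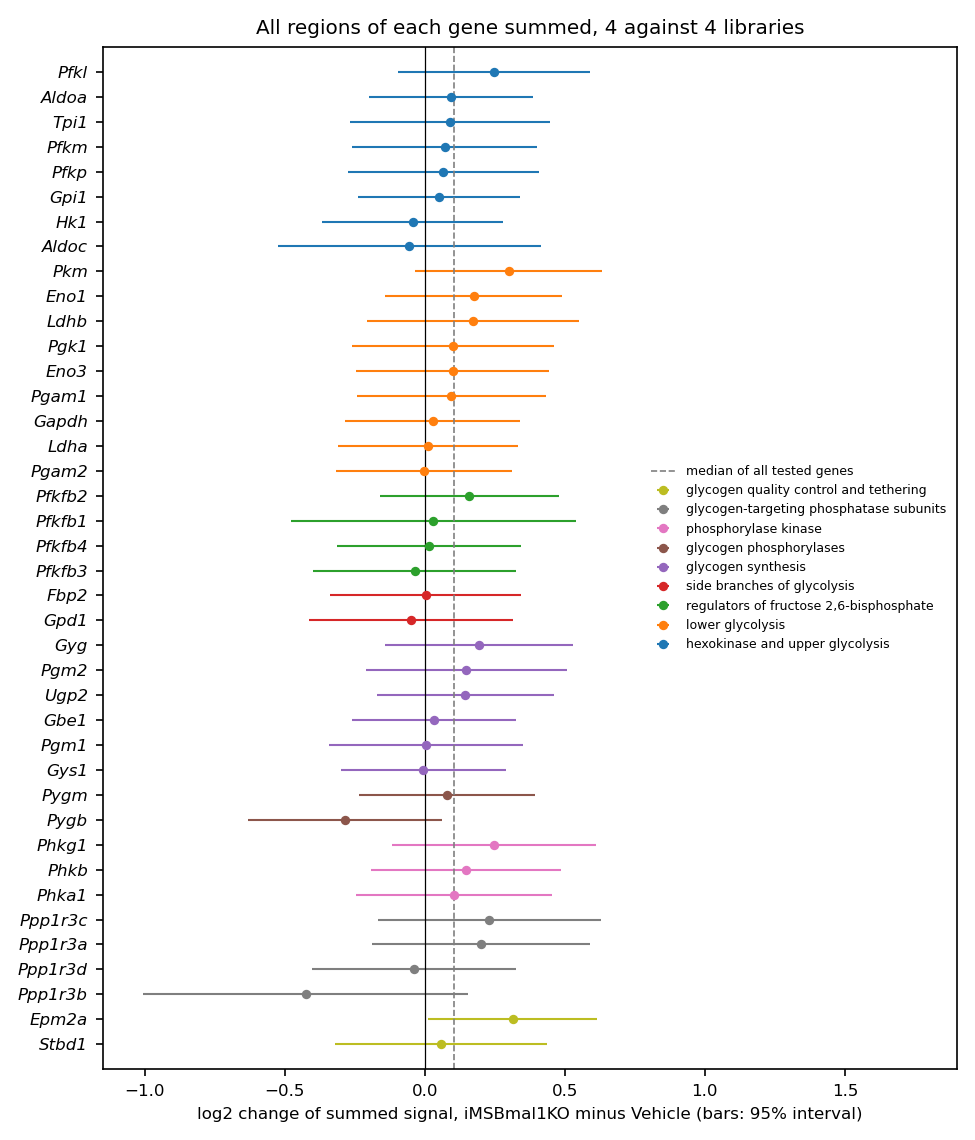
Log2 change of the summed signal of all regions (horizontal axis, iMSBmal1KO minus Vehicle) with its 95% interval for 40 members, coloured by role, from limma over 4 against 4 libraries. The points lie between -0.42 (Ppp1r3b) and 0.31 (Epm2a), the interval of Epm2a alone lies off 0, and the dashed line marks the median of all tested genes at 0.11.

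In hexokinase and upper glycolysis, 8 genes with 71 tested regions, the summed log2 changes ran from -0.05 (Aldoc) to 0.25 (Pfkl). Pfkl, the liver form of phosphofructokinase, held 694, 801, 646 and 482 in Vehicle and 683, 813, 756 and 817 in iMSBmal1KO, a change of 0.25 ± 0.16 (SE) that was 0.11 both without Vehicle 4 and under the loess. In Pfkm a region at coding exon 17, chr15:98127722-98127852, had a signal of 27.7, 19.5, 35.0 and 6.25 against 46.7, 41.0, 38.2 and 31.4 (log2 change 1.01 ± 0.40, limma adjusted p = 0.498). A single Vehicle library overlapped the other group there, and the change was 0.53 without Vehicle 4, in which 2 reads were behind the value. Gpi1 encodes the isomerase that turns glucose phosphate into fructose phosphate. Its region at a transcription termination site (TTS), chr7:34227129-34227321, had a signal of 26.6, 20.5, 34.3 and 68.8 against 21.8, 15.1, 21.5 and 21.3 (-0.75 ± 0.34, adjusted p = 0.530). Vehicle 4 was here the highest, and the change was -0.41 without it.

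Lower glycolysis, 9 genes with 58 tested regions, had summed changes from -0.00 (Pgam2) to 0.30 (Pkm). At an unadjusted p under 0.05, 4 of the 58 regions were higher and 0 lower. Over all tested regions 9.22% reached it, 8236 higher and 3280 lower. Pkm held 3254, 2746, 2800 and 1845 in Vehicle and 2839, 3265, 3110 and 3674 in iMSBmal1KO. The log2 change was 0.30 ± 0.16 (SE; limma adjusted p = 0.552), and it was 0.13 without Vehicle 4 and 0.41 without Vehicle 1. Under the loess it was 0.26 ± 0.08 (limma unadjusted p = 0.00525, adjusted p = 0.272). Within Pkm the region chr9:59660591-59660765, annotated as an exon of the 5′ UTR, had a signal of 89.5, 119, 112 and 106 against 186, 159, 138 and 176. All 4 iMSBmal1KO values were above the 4 of Vehicle, by 0.62 ± 0.21 on the log2 scale (adjusted p = 0.434), and the change was also 0.62 without Vehicle 4. Eno1, the enolase of most tissues, had such a region in intron 2, chr4:150240160-150240363, with 104, 105, 81.3 and 90.7 against 185, 136, 126 and 130 (0.59 ± 0.22, adjusted p = 0.475). Ldha had a region at a TTS, chr7:46849474-46849635, with 97.0, 77.1, 76.9 and 62.5 against 96.7, 149, 118 and 105 (0.57 ± 0.23, adjusted p = 0.501). There Vehicle 1 and iMSBmal1KO 1 met at the same level. Gapdh as a whole held 5286, 3720, 4283 and 3174 against 3708, 4110, 4145 and 4577, a log2 change of 0.03 ± 0.15.

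**Figure D3:**
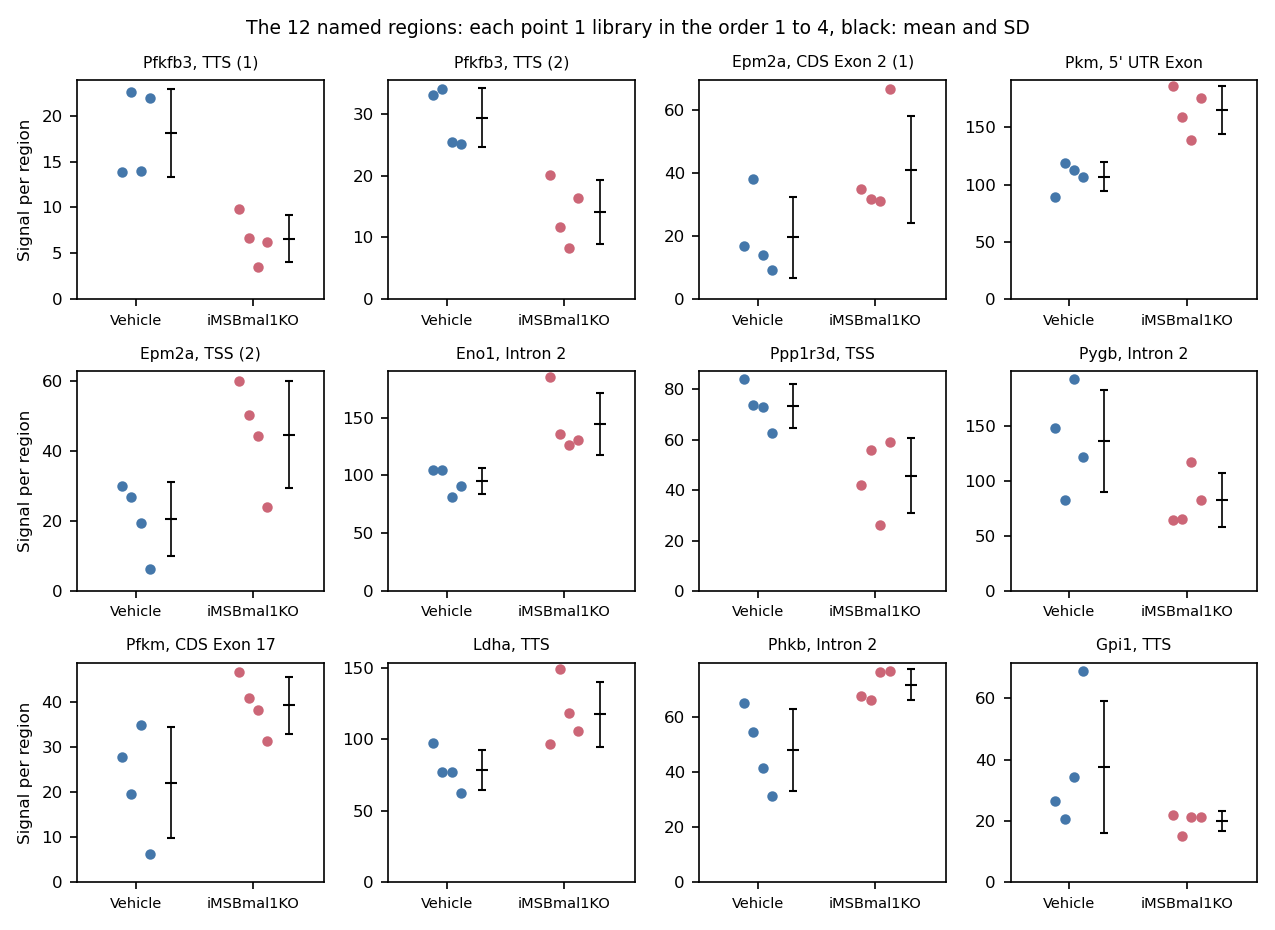
Signal per region in each library (vertical axes start at 0) for the 12 member regions with the smallest p-values, at most 2 per gene, with the mean and SD of 4 libraries per group in black. The groups separate at both Pfkfb3 regions and at those of Pkm, Eno1, Ppp1r3d and Phkb, and overlap in the other 6.

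The regulators of fructose 2,6-bisphosphate are the 4 Pfkfb genes, whose enzymes make and break down this strong activator of phosphofructokinase. Their 60 tested regions had a median log2 change of -0.11. At an unadjusted p under 0.05, 0 were higher and 7 lower, where 9.22% of all tested regions reached it. All 7 were in Pfkfb3. The summed signal of these genes had log2 changes of -0.04 ± 0.17 (SE) at Pfkfb3, 0.02 ± 0.16 at Pfkfb4, 0.03 ± 0.24 at Pfkfb1 and 0.16 ± 0.15 at Pfkfb2, where it was 0.06 without Vehicle 4 and 0.03 under the loess. Pfkfb3 held 3077, 3622, 1990 and 2276 in Vehicle and 3026, 2571, 2118 and 2771 in iMSBmal1KO.

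The lower values of Pfkfb3 lay in the downstream part of the gene. Its strongest region, chr2:11501366-11502442, at an annotated start 52.2 kb from the first annotated start, had a mean signal of 1017 ± 262 in Vehicle and 1128 ± 90.1 in iMSBmal1KO. Up to 55 kb, a limit set after the values were seen, 14 regions were tested, 8 with a negative and 6 with a positive difference, and their median log2 change was -0.05. Beyond it 19 of 20 tested regions had a negative change, with a median of -0.66. The summed signal beyond 55 kb was 632, 878, 421 and 563 in Vehicle and 595, 356, 326 and 450 in iMSBmal1KO, so that the groups overlapped in the sum. Neighbouring regions of a gene share libraries and are not independent, and the split was not tested.

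Among those downstream regions, chr2:11478593-11478722 at a TTS had a signal of 13.9, 22.6, 14.0 and 21.9 in Vehicle and 9.84, 6.69, 3.58 and 6.27 in iMSBmal1KO. The log2 change was -1.36 ± 0.40 (SE), and its limma adjusted p of 0.343 was the smallest of the members. From 3 to 23 reads were behind each value. A further region, chr2:11480680-11480856, had 33.0, 33.9, 25.4 and 25.0 against 20.1, 11.7, 8.35 and 16.3 (-1.06 ± 0.33, adjusted p = 0.375). In both regions the 4 iMSBmal1KO libraries were below the 4 Vehicle libraries. Without Vehicle 4 the changes were -1.26 and -1.13.

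**Figure D4:**
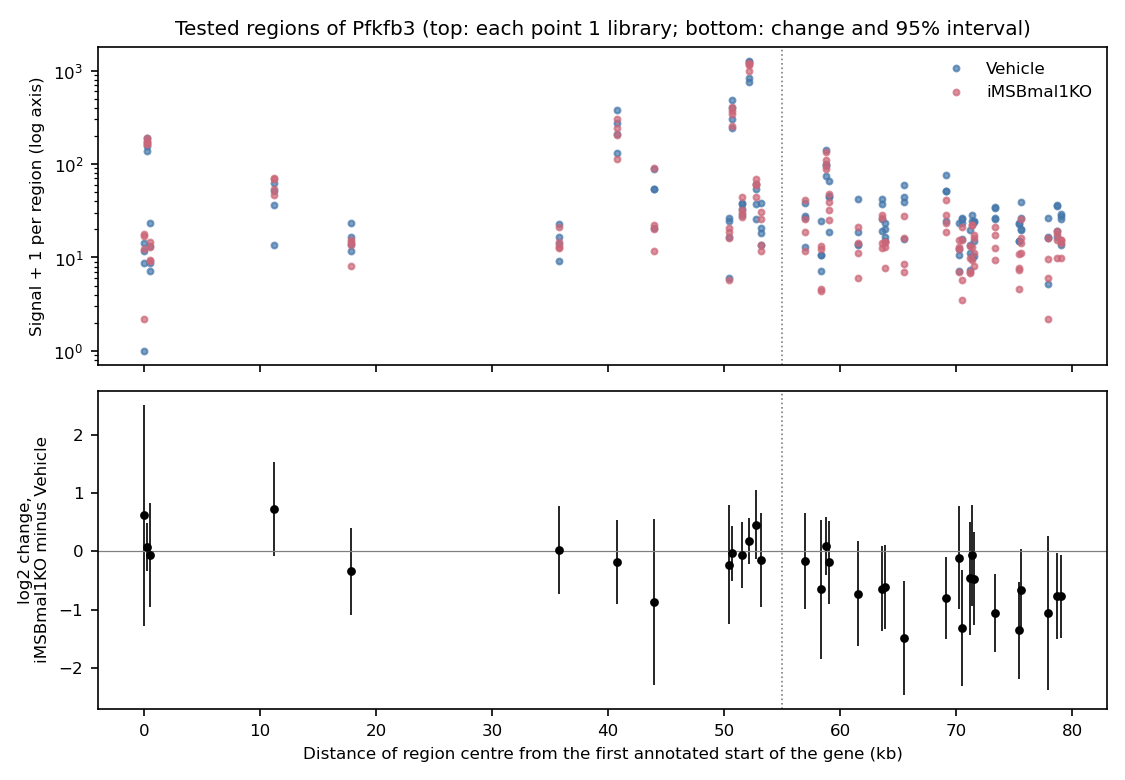
Signal + 1 of each library (top, log axis) and log2 change with its 95% interval (bottom) at the 34 tested regions of Pfkfb3, by distance in kb from the first annotated start. The strongest signal lies near 52.2 kb, and beyond the dotted line at 55 kb 19 of the 20 estimates lie below 0.

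The side branches are represented by Fbp2 and by Gpd1, which passes electrons from glycolytic NADH toward glycerol phosphate. Their summed changes were 0.00 ± 0.16 (SE) and -0.05 ± 0.17. None of their 11 tested regions reached an unadjusted p under 0.05, where 9.22% of all tested regions did.

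In glycogen synthesis, 6 genes with 68 tested regions, the summed log2 changes ran from -0.00 (Gys1) to 0.19 (Gyg). Gyg encodes glycogenin, the protein primer on which a glycogen particle is built. Its single start region held 738, 640, 459 and 341 in Vehicle and 577, 692, 680 and 778 in iMSBmal1KO (log2 change 0.38 ± 0.21, SE; limma unadjusted p = 0.0745). Vehicle 3 and 4 were the low libraries, and the change was 0.17 without Vehicle 4 and 0.20 under the loess. Over all regions of Gyg the change of 0.19 was 0.09 without Vehicle 4, 0.31 without Vehicle 1, 0.12 without iMSBmal1KO 4 and 0.11 under the loess. Ugp2, which makes the UDP-glucose that glycogen synthase uses, held 2337, 2311, 1962 and 1498 over all regions against 2329, 2266, 2010 and 2237 (0.15 ± 0.15, with 0.01 without Vehicle 4, 0.22 without Vehicle 1, 0.08 under the loess and 0.09 with total read equivalents). Gbe1, the branching enzyme, had a log2 change of 0.03 ± 0.14 and Pgm1 of 0.00 ± 0.17. The strongest region listed under Pgm1 was in intron 7, chr4:99974023-99974806, with a mean signal of 1369 ± 359 in Vehicle and 1285 ± 223 in iMSBmal1KO, below the region listed under Itgb3bp at its RefSeq start.

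Of the phosphorylases, which release glucose phosphate from glycogen, Pygm held 3288, 2828, 3099 and 2039 over all regions in Vehicle and 2761, 3051, 2771 and 3144 in iMSBmal1KO (log2 change 0.08 ± 0.15, SE). Pygb held 337, 244, 344 and 250 against 249, 230, 250 and 222, a change of -0.29 ± 0.17 (limma adjusted p = 0.567) that was -0.46 under the loess. The change of Pygb was -0.21 without Vehicle 1, -0.20 without Vehicle 3, -0.37 without Vehicle 2 and -0.36 without Vehicle 4. Vehicle 1 and 3 were high and the other 6 libraries lay between 222 and 250. In its intron 2, chr2:150826509-150826795 held 148, 82.2, 193 and 122 against 64.6, 65.2, 117 and 82.8 (-0.70 ± 0.27, adjusted p = 0.494), while the start of Pygb stood at 0.11 ± 0.21.

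Phosphorylase kinase, which switches phosphorylase on when calcium rises, was represented by Phka1, Phkb and Phkg1, with summed log2 changes of 0.10 ± 0.17, 0.15 ± 0.16 and 0.25 ± 0.17 (SE). That of Phkg1 was 0.06 without Vehicle 4 and 0.13 under the loess. In Phkb, the regulatory beta subunit, a region in intron 2, chr8:85862530-85862782, held 65.0, 54.5, 41.3 and 31.3 in Vehicle and 67.6, 66.1, 76.3 and 76.5 in iMSBmal1KO. The groups did not overlap there, by a margin of about 1 unit of signal, with a log2 change of 0.62 ± 0.26 (limma adjusted p = 0.511) that was 0.43 without Vehicle 4. The strongest region of Phkb lay 194 kb into the gene, at the annotated start of a short transcript, with 688 ± 150 in Vehicle and 731 ± 162 in iMSBmal1KO.

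The glycogen-targeting subunits of protein phosphatase bring the enzyme that turns synthase on and phosphorylase off to the glycogen particle. Ppp1r3d had the lowest log2 change at a start. Its start regions held 90.6, 88.4, 80.7 and 62.5 in Vehicle against 45.8, 59.4, 29.8 and 64.0 in iMSBmal1KO, -0.73 ± 0.25 (SE) on the log2 scale with a limma adjusted p of 0.450. iMSBmal1KO 4 was just above Vehicle 4, and the other 3 iMSBmal1KO libraries were below all of Vehicle. Most of this signal was in the region chr2:178414778-178414920, which lies upstream of the promoter shown and held 84.2, 74.0, 73.1 and 62.5 against 41.9, 56.0, 26.2 and 59.0, without overlap (-0.73 ± 0.27, adjusted p = 0.479). From 20 to 115 reads were behind the values, and the change of this region was -0.49 without iMSBmal1KO 3 and -0.87 without iMSBmal1KO 4. The whole of Ppp1r3d stood at -0.04 ± 0.17, and its strongest region, in the 3′ UTR exon, held 237 ± 63.7 and 250 ± 24.5.

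Ppp1r3c held 1994, 1649, 1961 and 1332 over all regions in Vehicle and 1312, 2543, 2500 and 1956 in iMSBmal1KO (log2 change 0.23 ± 0.19, SE), so that the lowest and the highest library were both iMSBmal1KO. The change of Ppp1r3c was 0.44 without iMSBmal1KO 1, 0.12 without iMSBmal1KO 2, 0.13 without iMSBmal1KO 3 and 0.11 without Vehicle 4. Ppp1r3a had a log2 change of 0.20 ± 0.19, which was 0.01 without Vehicle 4, 0.33 without Vehicle 1, 0.12 without iMSBmal1KO 4 and 0.07 under the loess. Ppp1r3b, the liver form, was the weakest, with 36.2, 37.0, 47.7 and 46.9 against 43.2, 37.6, 31.0 and 17.6 (-0.42 ± 0.28, limma adjusted p = 0.600). iMSBmal1KO 4 was the low library, and the change was -0.17 without it.

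Epm2a encodes laforin, a phosphatase that keeps glycogen soluble and whose loss underlies Lafora disease. Over its 19 regions it held 373, 383, 400 and 369 in Vehicle and 465, 526, 466 and 443 in iMSBmal1KO. All 4 iMSBmal1KO libraries were above the 4 of Vehicle, with a log2 change of 0.31 ± 0.14 (SE), an unadjusted p of 0.042 and an adjusted p of 0.517 (limma). Without Vehicle 4 the change was 0.30, and under the abundance-dependent loess it was 0.15 with an unadjusted p of 0.211. With total read equivalents as the scale the unadjusted p was 0.142, and with a library left out it ran from 0.0418 to 0.127. Its start regions held 62.9, 79.1, 73.1 and 71.9 against 123, 125, 103 and 69.0 (0.51 ± 0.22, adjusted p = 0.469, and 0.31 under the loess). There iMSBmal1KO 4 lay inside the range of Vehicle.

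Within Epm2a the strongest region, chr10:11343592-11343819 in coding exon 1, held 162, 135, 163 and 106 in Vehicle and 190, 239, 167 and 183 in iMSBmal1KO (log2 change 0.47 ± 0.22, SE; limma adjusted p = 0.534). The region chr10:11343356-11343434 lies inside the promoter stretch shown and held 29.8, 26.7, 19.4 and 6.25 against 59.9, 50.2, 44.1 and 23.8 (1.20 ± 0.41, adjusted p = 0.454). In coding exon 2, chr10:11390888-11391135 held 17.1, 38.0, 14.0 and 9.38 against 35.1, 31.8, 31.0 and 66.5 (1.14 ± 0.37, adjusted p = 0.427). The values of Vehicle 4 in these regions came from as few as 2 and 3 reads, and without that library the changes were 0.74 and 0.87. Stbd1, which tethers glycogen to membranes, had a log2 change of 0.06 ± 0.18 as a whole.

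By gene section, regions of the members lay more often in later introns and less often in exons of the 5′ UTR than regions of all genes, as shares with no test. Start (TSS) regions made up 175 of the 950 (18.4%, against 21.3% of all regions in genes) and held 57.7% ± 0.93 (SD, n = 4) of the member signal in Vehicle, with 58.1% ± 0.74 in iMSBmal1KO. Introns after the first made up 388 regions (40.8% against 31.3%), with 17.9% ± 0.45 and 17.6% ± 0.47 of the signal, and exons of the 5′ UTR made up 2.11% against 13.6%. Among the regions listed under each member's own name, the strongest tested one was a start in 31 of 40 genes. Among the exceptions, Pfkm was strongest in intron 2, at chr15:98115027-98115561, with 895 ± 243 in Vehicle and 958 ± 130 in iMSBmal1KO, and Pgam2 and Gpi1 at a TTS. The median log2 change of the member regions was 0.07 at starts (0.17 over all tested start regions), 0.05 in later introns (0.11), 0.14 in coding exons (0.06) and -0.02 at TTS regions (0.06). At TTS regions 2 of 45 were higher and 5 lower at an unadjusted p under 0.05, where 9.43% of all tested TTS regions reached it. Of these 5 lower regions 4 were in Pfkfb3.

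Outside the members, 36 further genes of glycolysis, glycogen and lactate metabolism were read the same way. Of these 31 could be tested and 0 passed the adjusted threshold in either direction, where 0.13% of all genes did. The median difference was 0.03 on the log2 scale, above 0 in 16 genes. Over all genes the median was 0.11, and 66.6% were above 0. The smallest p-values belonged to Pgm3, Phka2 and Ldhc. Pgm3, a mutase that acts on acetylglucosamine phosphate, held 420, 538, 357 and 294 in Vehicle and 515, 563, 482 and 548 in iMSBmal1KO (0.42 ± 0.18, SE; limma adjusted p = 0.511), and the groups overlapped through Vehicle 2. Phka2, the liver alpha subunit of phosphorylase kinase, stood at 0.36 ± 0.18 (adjusted p = 0.529) and Ldhc, the testis lactate dehydrogenase, at -0.50 ± 0.28 (adjusted p = 0.563).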

How the data were processed

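Nuclei of 8 gastrocnemius samples were assayed by ATAC-seq. The authors deposited 1 table of regions with a signal per library. The submitters' processing notes name Partek, Bowtie2, MACS2 and DESeq2 and the builds mm10 and GRCm39, with no role or order. Read filtering, the shift for the transposase and region calling were not given in the sources used here and could change the values. The deposited signal was never negative, and 98.3% to 99.8% of values per library were whole multiples of 1 step (tolerance 0.02 reads), so that it was read as counts divided by a factor, although whole reads are not claimed. All value columns matched a sample. Coordinates are those of the table, counted from 1. It names no build, and 41 of 41 listed members overlapped their RefSeq GRCm38.p6 gene.

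Signal was summed per gene over all regions and over start (TSS) regions. Rows were kept with at least 0.762 read equivalents per M in 4 libraries and 15 in all. They were tested over all 8 libraries with limma-trend 3.58.1 (robust moderation, group as the single term, R 4.3.3) on log2(signal + 1), two-sided, with Benjamini-Hochberg adjustment over all rows of a level and a threshold of 0.05. Changes of weak regions are understated on that scale. Alternatives were other scalings, filters, pseudocounts, thresholds and start definitions, a replicate block, and leaving out each library. Named were the 12 member regions with the smallest p (at most 2 per gene), muscle isoforms, the up to 12 members with the smallest gene-level p, and of the other pathway genes the 3 with the smallest p. The further regions and the strongest region of a gene were named after values were seen. The members and lists were chosen with earlier results of these data known. Tables and figures used Python 3.11.15, pandas 2.3.3 and matplotlib 3.10.9.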

Additional observations from a re-analysis of the deposited data

Results flagged for a closer look

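In 4 of 104 groups of 4 libraries examined, a library lay far from the other 3, beyond the 95% limit of Dixon's test of the gap against the group's whole range. Chance gives about 5%, or 5.2 of 104. All 4 were iMSBmal1KO libraries. Phka1, summed over its regions, was at 1336 in iMSBmal1KO 1 against 1911 to 1997 in the others, a gap of 0.870 of the range. The Epm2a region in coding exon 2 was at 66.5 in iMSBmal1KO 4 against 31.0 to 35.1 (0.885). The Eno1 region in intron 2 was at 185 in iMSBmal1KO 1 against 126 to 136 (0.831). The Gpi1 region at a TTS was at 15.1 in iMSBmal1KO 2 against 21.3 to 21.8 (0.926). Their causes were not tested.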

How the results depend on the processing

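The count of members past the threshold was 0 for regions, summed genes and summed starts under every alternative run. The 28 named values kept their direction in all 475 comparisons over 17 other settings, and the lowest adjusted p was 0.106 (limma). These values were picked for their small p in the same data, and the filters and the replicate block leave an estimate unchanged. A kept direction is therefore no separate support for a difference. The stricter filter gave no value for the weakest named Pfkfb3 region. The edgeR and DESeq2 tests listed as alternatives were not run, since whole reads are not claimed, so the counts of 0 come from limma alone. The median log2 change of member regions was 0.05, and -0.084 under an abundance-dependent loess. It was -0.01 with total read equivalents as the scale, and -0.04 to 0.12 when a library was left out. Relative to the median of all regions it ranged from -0.11 to -0.04, and was 0.03 without a filter. The loess moved the median of all regions from 0.12 to 0.01.

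With the replicate number as a block, the members past the threshold were again 0 at each level, and over all features 100 regions, 116 genes and 74 starts were called, against 110, 29 and 14. Whether the numbers pair the samples cannot be settled from these 8 libraries. Correlations of same-numbered libraries were -0.06, 0.14, 0.02 and 0.02, and no Vehicle library correlated best with its own number. Calls over all regions were 342 under the loess, 195 without a filter, 58 with trimmed-mean factors and 32 (without Vehicle 1) to 281 (without Vehicle 4) with a library left out. Calls over all starts, 14 in the fit reported, were 292 without Vehicle 2, and calls over all genes, 29 in that fit, were 107 without it. Depth limits weak regions most, since in Vehicle 4 a value of 6.25 rests on 2 reads.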
